A study of Rattus norvegicus with 12 samples.

Results

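The genes described here are 8 genes of antibody recognition, namely the IgG receptors Fcgr1a, Fcgr2b and Fcgr3a, the neonatal IgG receptor Fcgrt, the adaptors Fcer1g and Tyrobp, and the kinases Lyn and Syk. They were taken as every probe set annotated to exactly 1 gene symbol that is one of these 8, which gave all 8 genes and 9 probe sets, 2 of them for Lyn, out of 14217 genes and 31042 probe sets tested. The question was whether any antibody, or an antibody against Nogo-A in particular, is followed by a change in this machinery in brain tissue.

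RNA came from hippocampal slice cultures of Wistar rats taken at postnatal day 7, and was hybridised to 12 Affymetrix arrays in 4 groups of 3. The group NT was left untreated until day 26 in vitro. The IgG group received a control monoclonal antibody raised against wheat auxin, the 11C7 group a mouse monoclonal antibody to Nogo-A residues 623 to 640, and the 7B12 group one to Nogo-A residues 763 to 820. Treatment began on day 21 and lasted 5 days, at 3 µg/ml of each antibody, and medium was replaced every 2 days. All 4 groups shared slices 350 µm thick, 4 to an insert, at 33 °C, and each array held the pooled RNA of 24 cultures, with replicates from different animals per the design text. Such cultures hold neurons, glia and the microglia that came with the slice, and they have no blood supply. Antibody isotypes, which set how strongly a receptor binds, were not given in the sources used here.

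Fc gamma receptors bind the constant part of IgG. The activating ones have no signalling tail of their own and work through the adaptor FcR gamma, encoded by Fcer1g, whose ITAM (a tyrosine motif) is phosphorylated by Src-family kinases such as Lyn and then docks the kinase Syk. Fcgr2b instead carries an inhibitory motif (an ITIM), Tyrobp (DAP12) is an ITAM adaptor of other myeloid receptors such as Trem2, and Fcgrt (FcRn) recycles IgG inside cells without ITAM signalling. In the brain the ITAM machinery is known mainly from microglia and macrophages.

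The promoter of Fcgr3a is shown because the results turn on it, and that of Fcgrt as a receptor gene that was not higher with 7B12. RefSeq promoters (250 bases before to 50 after a start site, build GRCr8) were available for 3 of the 8 genes. The windows of Fcgr3a, at chr13:85782386-85782685 on the plus strand, and of Fcgrt, at chr1:104719977-104720276 on the minus strand, read 5′ to 3′ as follows, with matches to 2 searched motifs in capitals.
Fcgr3a: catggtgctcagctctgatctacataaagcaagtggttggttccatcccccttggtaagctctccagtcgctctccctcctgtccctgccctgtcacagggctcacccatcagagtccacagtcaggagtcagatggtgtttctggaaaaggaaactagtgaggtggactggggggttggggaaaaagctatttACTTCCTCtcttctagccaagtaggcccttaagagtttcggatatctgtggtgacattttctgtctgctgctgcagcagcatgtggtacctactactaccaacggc
Fcgrt: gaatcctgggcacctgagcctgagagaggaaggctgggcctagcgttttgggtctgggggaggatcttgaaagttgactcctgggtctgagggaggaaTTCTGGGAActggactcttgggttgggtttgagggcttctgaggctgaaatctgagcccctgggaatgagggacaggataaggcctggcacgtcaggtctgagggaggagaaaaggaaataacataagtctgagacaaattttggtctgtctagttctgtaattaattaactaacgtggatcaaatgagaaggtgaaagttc
The motifs in capitals are GAGGAAGT, the form bound by the myeloid factor PU.1, and TTCNNNGAA, the form of a STAT site, each searched on both strands. Fcgr3a held GAGGAAGT, read as ACTTCCTC on this strand, at positions -56 to -49 from the start site, and no TTCNNNGAA. Fcgrt held TTCNNNGAA at -152 to -144 and no match to GAGGAAGT. Of all 33469 RefSeq rat promoters of the same length, 2.42% held GAGGAAGT and 8.87% TTCNNNGAA. The shorter core GAGGAA, which lies inside GAGGAAGT and is not capitalised on its own, was found in 27.6% of promoters, 1 time in the Fcgr3a window, 2 times in that of Fcgrt and 1 time in that of Syk. The Syk window held neither of the 2 longer motifs. These are matches of letters only.

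The authors deposited 1 ratio per probe set and array, which is given here on the log2 scale after subtraction of the array median. A ratio carries no level, so 1 gene cannot be set against another in amount, nor can the tissue be checked by whether its defining markers are present. The lowest deposited ratio of the 9 probe sets was 0.444, well above the smallest value in the table, 0.01, and no filter on low values was used. A difference between groups is given on the log2 scale, as the difference of their means ± its standard error (SE) in limma over all 12 arrays. A probe set is called at an adjusted p under 0.05, after Benjamini-Hochberg adjustment over all probe sets. Controls means the mean of the NT and IgG group means, and 11C7 and 7B12 were both set against these same 6 control arrays.

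Array 1 of the 11C7 group stood apart from arrays 2 and 3 of that group for several of these genes, with values near those of 7B12. The main results that use 11C7 are therefore given with and without it. Since the array was picked by these same values, leaving it out lowers the 11C7 means of the genes high in it by selection. It can also lower the spread that enters the SE of those genes in every comparison. Arrays with the same replicate number also deviated together. For the 9 same-number pairs among NT, IgG and 7B12 the correlation of deviations from the group means, across probe sets, was 0.12 to 0.42, so number served as a block in a second fit. That paired fit takes the 9 arrays of NT, IgG and 7B12 with the replicate number as a term.

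**Figure D1:**
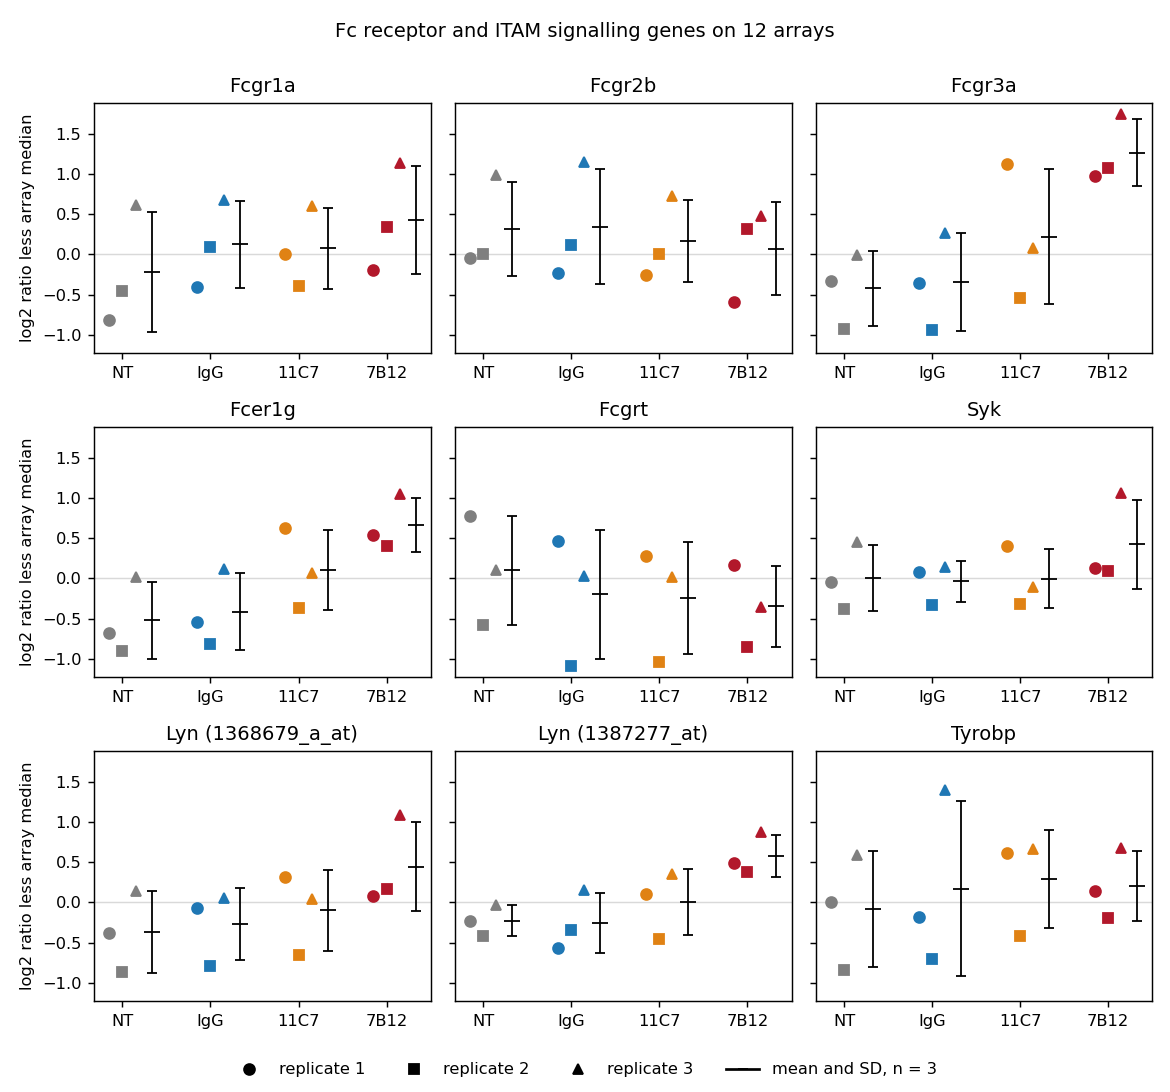
Log2 ratio less the array median (vertical axes) of the 9 probe sets on 12 arrays, by group (horizontal axes); marker shapes give the replicate number, and the bars to the right of the points give the mean and SD of 3 arrays. All 3 7B12 points lie above all 6 NT and IgG points in the panels of Fcgr3a, Fcer1g and Lyn (1387277_at), and for Fcgr3a and Fcer1g 1 of the 3 11C7 points lies within the 7B12 range.

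Among the activating receptors, Fcgr3a, whose entry in RefSeq also carries the names Fcgr4 and CD16-2, stood highest with 7B12. It read -0.34, -0.93 and -0.00 in NT 1 to 3, -0.36, -0.95 and 0.27 in IgG 1 to 3, 1.12, -0.54 and 0.08 in 11C7 1 to 3, and 0.98, 1.08 and 1.74 in 7B12 1 to 3. The 3 7B12 arrays and the first 11C7 array were the 4 highest of the 12, and 7B12 did not overlap with the controls. The group means were -0.42 ± 0.47 (SD, n = 3) in NT, -0.34 ± 0.61 in IgG, 0.22 ± 0.84 in 11C7 and 1.27 ± 0.41 in 7B12. In that order NT, IgG and 11C7 lay within 1 SD of their neighbours.

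Against controls, 7B12 was higher in Fcgr3a by 1.65 ± 0.41 (SE), a 3.14-fold difference, with a 95% interval from 0.74 to 2.56 and a limma adjusted p of 0.575, so it was not called over 12 arrays. Set against control arrays of the same replicate number, the 3 7B12 arrays were higher by 1.32, 2.02 and 1.61. In the paired fit the same difference had an SE of 0.16 and Fcgr3a rose with an adjusted p of 0.0469. With the block over all 12 arrays, 11C7 included, the SE was 0.31 and the adjusted p 0.291, so it was not called. That call was lost when any 1 of the 9 arrays was left out, where the difference was 1.47 to 1.81 and the adjusted p 0.162 to 0.211. In whole cultures more cells with a transcript and more transcript per cell cannot be told apart.

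Fcgr1a, the high-affinity IgG receptor, read -0.82, -0.45 and 0.61 in NT, -0.40, 0.09 and 0.68 in IgG, 0.01, -0.40 and 0.61 in 11C7, and -0.20, 0.34 and 1.14 in 7B12. All 4 groups overlapped, and the third array was the highest of each group. With 7B12 the difference from controls was 0.48 ± 0.42 and was not called, although against controls of the same number it was even, at 0.41, 0.52 and 0.49. Against NT the IgG arrays were also above their partners in 3 of 3 numbers for Fcgr1a, by 0.42, 0.55 and 0.06. In the paired fit of IgG and NT alone, the interval of this difference was -0.14 to 0.83. With the block and without the array that stood apart it was 0.016 to 0.67, with an unadjusted limma p of 0.042. This difference was not called in either fit. Set against IgG alone, the Fcgr1a difference of 7B12 was 0.30 ± 0.48, and against NT alone 0.65. The gene known in rat as Fcgr2a, another activating receptor, has only probe sets annotated to a near copy as well, so it is not described.

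Fcgr2b, the inhibitory receptor, was called in no comparison. Its values were -0.04, 0.00 and 0.99 in NT, -0.23, 0.12 and 1.15 in IgG, -0.25, 0.01 and 0.73 in 11C7, and -0.59, 0.32 and 0.48 in 7B12. The groups overlapped, with 7B12 1 and 11C7 1 below all 6 control arrays, and the difference of 7B12 from controls was -0.26 ± 0.40, with an interval from -1.16 to 0.64.

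The activating Fcgr3a and the inhibitory Fcgr2b were also read together within single arrays. As each value is a ratio, the sign and size of their difference on an array have no meaning of their own. Only its change between groups can be read, and that restates the differences given above for each gene. The log2 value of Fcgr3a less that of Fcgr2b was -1.06 to -0.13 on the 6 control arrays, and 1.57, 0.76 and 1.26 on the 7B12 arrays. On the 11C7 arrays it was 1.37, -0.55 and -0.65. Relative to same-number controls this difference was 1.78, 1.76 and 2.19 with 7B12 (1.91 ± 0.25, SD, n = 3), 1.58, 0.45 and 0.28 with 11C7, and 0.17, -0.13 and 0.12 with IgG against NT. The 3 7B12 arrays were close to each other, whereas 11C7 rested on its first array. No test was made of this difference. Both genes lie with Fcgr2a, its near copies and Fcer1g on chromosome 13, and whether a probe set also binds transcripts of a related receptor was not tested, since the files hold no probe sequences.

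**Figure D2:**
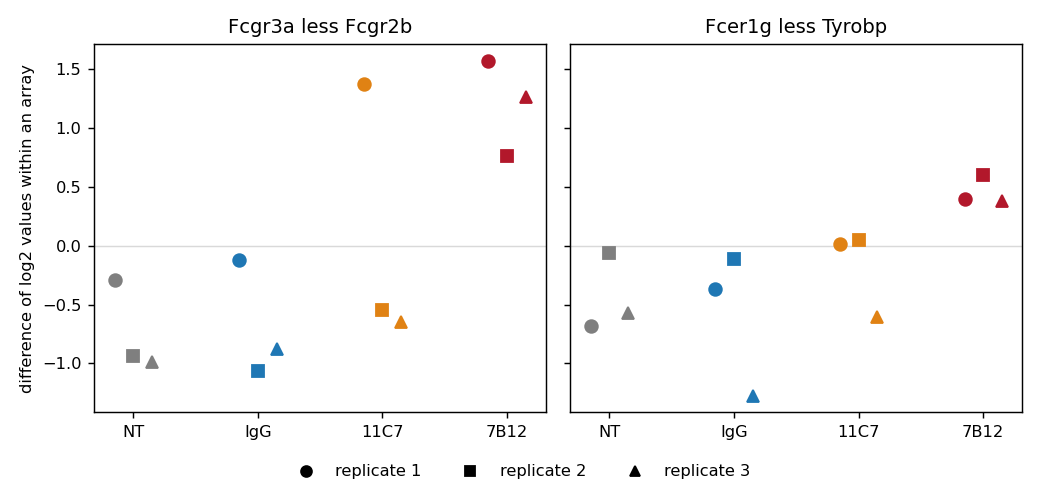
Difference of 2 log2 values within each of the 12 arrays (vertical axes), Fcgr3a less Fcgr2b on the left and Fcer1g less Tyrobp on the right, by group; marker shapes give the replicate number. For Fcgr3a less Fcgr2b the 7B12 arrays lie between 0.76 and 1.57 and the 6 control arrays between -1.06 and -0.13, with 11C7 1 at 1.37.

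Fcgrt, which protects IgG from breakdown and lets it cross cell layers, read 0.78, -0.58 and 0.11 in NT, 0.47, -1.09 and 0.03 in IgG, 0.27, -1.04 and 0.02 in 11C7, and 0.16, -0.86 and -0.35 in 7B12. The second array was the lowest in every group, and the groups overlapped. Each IgG array lay below the NT array of its number, and each 11C7 and 7B12 array below the mean of the NT and IgG arrays of its number, although 11C7 2 and 7B12 2 lay above IgG 2. The differences were -0.31, -0.51 and -0.08 for IgG less NT, -0.35, -0.20 and -0.04 for 11C7 less controls, and -0.46, -0.02 and -0.42 for 7B12 less controls. None was called, and the mean difference of 7B12 was -0.30 ± 0.45 (SE).

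Fcer1g, the gene of the FcR gamma adaptor that Fcgr1a and Fcgr3a both need, had a pattern like that of Fcgr3a. It read -0.68, -0.91 and 0.01 in NT, -0.55, -0.81 and 0.12 in IgG, 0.62, -0.36 and 0.06 in 11C7, and 0.54, 0.40 and 1.05 in 7B12. The 3 7B12 arrays lay above all 6 control arrays, and the first 11C7 array lay among them. The group means were -0.52 ± 0.48 (SD, n = 3) in NT, -0.41 ± 0.48 in IgG, 0.11 ± 0.50 in 11C7 and 0.66 ± 0.34 in 7B12. Each IgG array lay above the NT array of its number, by 0.13, 0.09 and 0.11. Against controls the difference with 7B12 was 1.13 ± 0.31 (SE), 2.19-fold, with an interval from 0.43 to 1.83 and a limma adjusted p of 0.634. By replicate number it was 1.15, 1.26 and 0.98. In the paired fit Fcer1g rose with an adjusted p of 0.0370. With the block over all 12 arrays it was not called, at an SE of 0.21 and an adjusted p of 0.291. With any 1 of the 9 arrays left out of the paired fit, the adjusted p was 0.143 to 0.200 and the difference 1.07 to 1.21.

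Tyrobp, the other ITAM adaptor, did not show this pattern. Its values were 0.01, -0.85 and 0.59 in NT, -0.18, -0.70 and 1.39 in IgG, 0.61, -0.42 and 0.67 in 11C7, and 0.14, -0.19 and 0.67 in 7B12. The highest array of all was IgG 3, and the differences from controls were 0.16 ± 0.50 with 7B12 and 0.24 ± 0.50 with 11C7, neither called. Fcer1g less Tyrobp within an array was -1.27 to -0.06 on controls and 0.38 to 0.60 with 7B12. Relative to same-number controls it was 0.92, 0.68 and 1.30 with 7B12, and 0.54, 0.14 and 0.32 with 11C7. This is a description with no test, and it restates the differences of both genes.

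Lyn, the Src-family kinase that phosphorylates both activating and inhibitory motifs, was measured by 2 probe sets. Probe set 1387277_at read -0.24, -0.41 and -0.03 in NT, -0.57, -0.35 and 0.15 in IgG, 0.10, -0.45 and 0.35 in 11C7, and 0.49, 0.37 and 0.87 in 7B12. The 3 7B12 arrays were the highest 3 of the 12. Against controls 7B12 was higher by 0.82 ± 0.24 (SE), 1.76-fold, with a limma adjusted p of 0.664, and by number the difference was 0.89, 0.75 and 0.81. The adjusted p in the paired fit was 0.119, so Lyn was not called there.

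The other Lyn probe set, 1368679_a_at, read -0.38, -0.87 and 0.14 in NT, -0.07, -0.79 and 0.05 in IgG, 0.32, -0.66 and 0.04 in 11C7, and 0.08, 0.17 and 1.08 in 7B12. Here 7B12 1 lay below NT 3, so the groups overlapped, and the difference from controls of 0.76 ± 0.34 had an adjusted p of 0.965. Both Lyn probe sets gave differences of the same sign and like size.

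Syk, the kinase that docks on phosphorylated ITAMs, read -0.05, -0.38 and 0.45 in NT, 0.08, -0.33 and 0.14 in IgG, 0.40, -0.32 and -0.11 in 11C7, and 0.12, 0.09 and 1.06 in 7B12. Only 7B12 3 lay above all control arrays. The difference of 7B12 from controls was 0.44 ± 0.29, and by number it was 0.11, 0.44 and 0.77, with no call in either fit.

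**Figure D3:**
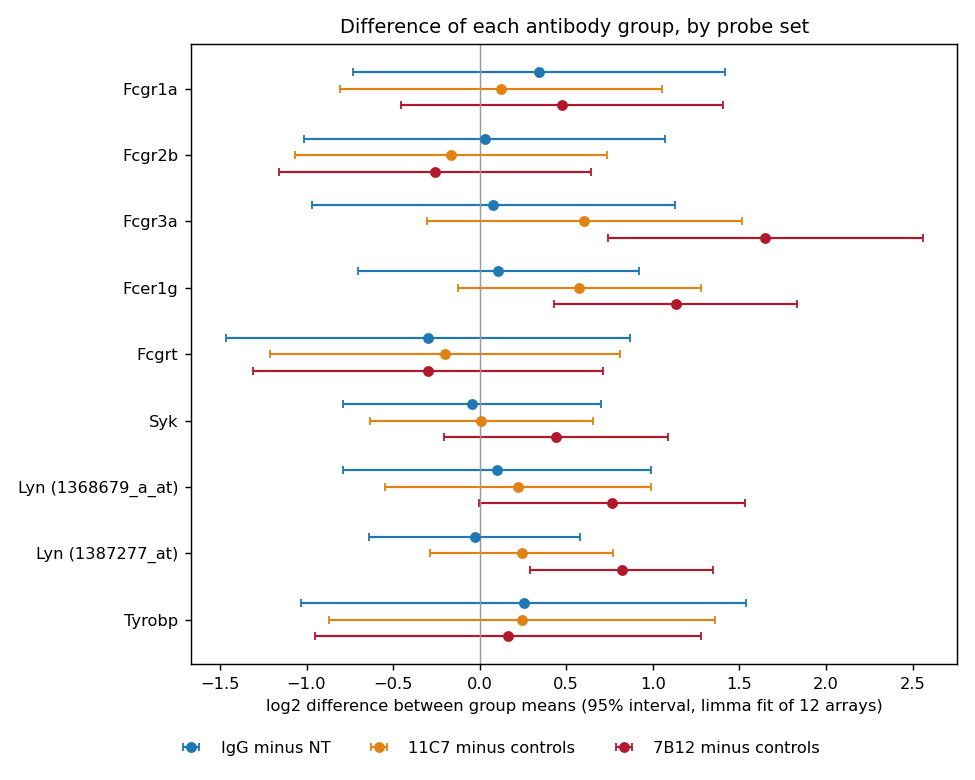
Log2 differences between group means (horizontal axis) with 95% intervals from the limma fit of 12 arrays, for the 9 probe sets and 3 comparisons. For 7B12 minus controls the intervals of Fcgr3a, Fcer1g and Lyn (1387277_at) lie above 0, before any adjustment for the number of probe sets tested, and every IgG minus NT interval spans 0.

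Over the 9 probe sets, the comparison of 7B12 with controls gave 0 calls, as it did over all 31042 probe sets (0%). At an unadjusted p under 0.05 in limma, 3 of the 9 were higher (Fcgr3a, Fcer1g and Lyn 1387277_at) and 0 lower, where 3.09% of all probe sets were higher. The same 3 had every 7B12 array above every control array, as 1.99% of all probe sets did. In the paired fit 2 of 9 were called higher, beside 0.197% of all. Against controls of the same number, 6 of 9 were higher in 3 of 3 numbers, beside 17.4% of all, the 3 others being Fcgr2b, Fcgrt and Tyrobp. The median difference over the 9 was 0.48, or 1.39-fold, against 0.00 over all probe sets. Of these probe sets 7 of 9 lay above 0, the exceptions being Fcgr2b and Fcgrt.

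A control antibody alone was set against no treatment to ask whether any IgG is followed by such differences. For IgG minus NT 0 of 9 probe sets were called and 0 of 31042 in all (0%). The median difference over the 9 was 0.08, with 6 of 9 above 0. At an unadjusted p under 0.05, 0 of 9 were higher, beside 1.31% of all, and for 0 of 9 did the 3 IgG arrays exceed all NT arrays, beside 2.54% of all. Against NT arrays of the same number, Fcgr1a and Fcer1g were higher with IgG in 3 of 3 numbers, and Fcgrt was lower in 3 of 3. The share of all probe sets higher in this way was not counted. Fcgr3a differed by 0.08 ± 0.47 and Fcer1g by 0.11 ± 0.36, and the Fcgr3a interval from -0.97 to 1.13 covers changes of either sign. In the paired fit of IgG and NT that interval was -0.33 to 0.49. Set against IgG alone in place of all controls, 7B12 stood higher by 1.61 ± 0.47 in Fcgr3a, 1.08 ± 0.36 in Fcer1g and 0.83 ± 0.27 in Lyn (1387277_at).

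The antibody 11C7 against the same controls gave 0 calls among the 9 and 0% over all. The median difference over the 9 was 0.22, with 7 of 9 above 0 as for 7B12, and without 11C7 1 the median was 0.08. At an unadjusted p under 0.05, 0 of 9 were higher, beside 0.989% of all probe sets. For 0 of 9 were all 3 arrays above the 6 controls, beside 0.767%, and for 0 of 9 were they above controls of their own number in 3 of 3 numbers, beside 12.3%. Fcgr3a differed by 0.60 ± 0.41 and Fcer1g by 0.58 ± 0.31. By number the Fcgr3a differences were 1.47, 0.40 and -0.05, and those of Fcer1g 1.24, 0.50 and -0.0029, so most of both came from the first array. Without 11C7 1 the differences were 0.15 ± 0.39 and 0.32 ± 0.34.

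**Figure D4:**
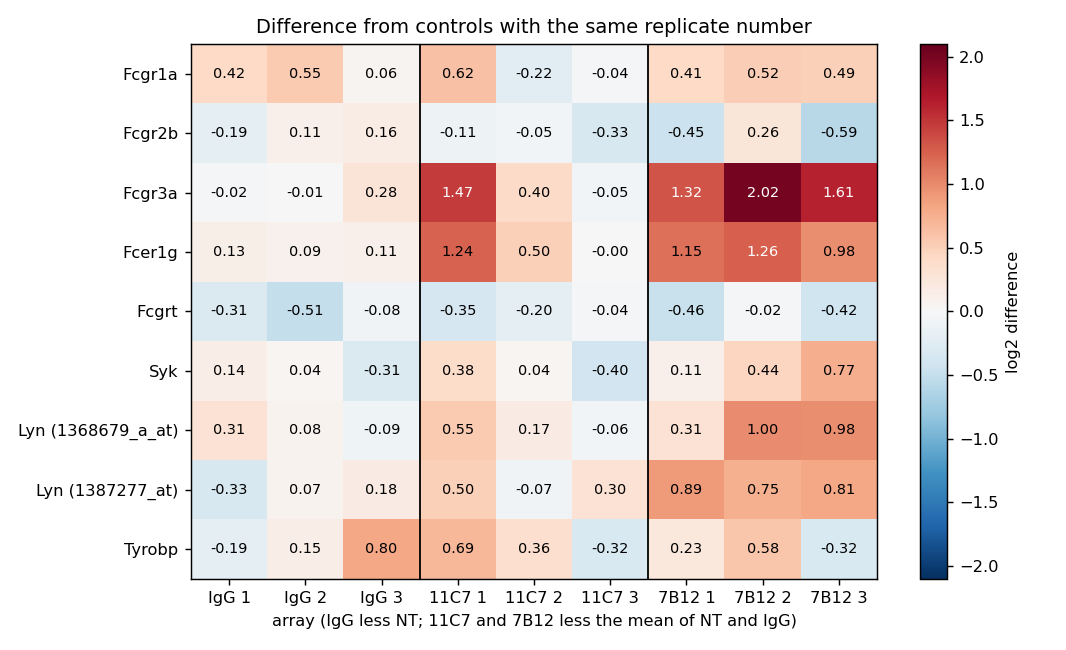
Log2 difference of each antibody array (columns) from the controls with the same replicate number, for the 9 probe sets (rows); colour and printed values give the difference, with red above 0 and blue below. The 7B12 columns of Fcgr3a read 1.32, 2.02 and 1.61, the 11C7 columns 1.47, 0.40 and -0.05.

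The 2 anti-Nogo-A antibodies were also compared directly. For 7B12 minus 11C7 0 of 9 probe sets were called and 0% of all, and 0 of 9 were higher at an unadjusted p under 0.05, beside 2.6%. Fcgr3a differed by 1.05 ± 0.47, with an interval from -0.0029 to 2.09, Fcer1g by 0.55 ± 0.36, with one from -0.25 to 1.36, and Lyn by 0.58 ± 0.27 (1387277_at) and 0.54 ± 0.40. With 11C7 1 left out and the replicate number as a block, the Fcgr3a difference was 1.53 ± 0.21 with a limma adjusted p of 0.102. The Fcer1g difference was 0.88 ± 0.16 with a limma adjusted p of 0.192. Neither was called, beside 27 calls over all probe sets. As 11C7 1 was picked for its high values of these genes, leaving it out had to widen both differences. The larger values are thus no separate support. In that fit of 11 arrays, Fcgr3a and Fcer1g with 7B12 were called against controls, with limma adjusted p of 0.0202 and 0.0263. Relative to the block over all 12 arrays, the SE fell from 0.31 to 0.16 for Fcgr3a and from 0.21 to 0.12 for Fcer1g. The differences themselves were unchanged. As 11C7 1 was picked by values of these genes, both calls are no separate support either. In that fit too, leaving out any further array other than 11C7 2 or 11C7 3 ended both calls, at 0.0679 to 0.129 for Fcgr3a and 0.0860 to 0.154 for Fcer1g.

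The mean of both anti-Nogo-A antibodies against control IgG also gave 0 calls among the 9 and 0% over all. Binding to Nogo-A cannot be told apart here from other differences between the antibodies, whose isotypes were not given. At an unadjusted p under 0.05, 3 of 9 were higher, beside 1.98% of all. These were again Fcgr3a, at 1.09 ± 0.41, Fcer1g, at 0.80 ± 0.31, and Lyn (1387277_at), at 0.55 ± 0.24, and without 11C7 1 they stood at 0.86 ± 0.35, 0.67 ± 0.31 and 0.52 ± 0.26. This comparison shares the IgG and antibody arrays with those above.

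The 9 probe sets differed in what their variation followed. For Fcgr3a, Fcer1g and Lyn (1387277_at) group took 65.0%, 61.8% and 62.1% of the variation over the 12 arrays, and replicate number 19.6%, 25.0% and 29.3%. For Fcgrt, Fcgr2b, Tyrobp and Fcgr1a number took 87.6%, 84.2%, 78.6% and 72.7%, with the third arrays highest for all of these but Fcgrt. Syk and the other Lyn probe set also varied more by number, at 43.4% and 46.9%, than by group, at 24.3% and 36.8%. The median probe set had 18.3% by group and 35.2% by number.

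By the mean absolute difference of centred log2 values over the 12 arrays, the 5 genes whose pattern was most like that of Fcer1g among 14216 were Ehbp1l1 (0.116), P2ry6 (0.116), a receptor for UDP, Tnfaip8 (0.134), Cd33 (0.142), a sialic acid receptor with ITIMs, and Lpxn (0.143). The median gene was at 0.593. Lyn ranked 27, Fcgr3a 107, Syk 268, Fcgr1a 553 and Tyrobp 979 (0.428) in that order. Fcgrt ranked 6974 and Fcgr2b 7993. The 5 most like Tyrobp were Pld4 (0.191), Ptafr (0.201), the platelet-activating factor receptor, RT1-DMb (0.204), a chaperone of class II antigen loading, Slc22a18 (0.205) and Slc15a3 (0.213), beside a median of 0.621.

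Other genes of the pathway were described by lists, each by 7B12 minus controls in limma, where no probe set of any list was called over 12 arrays. Counts of probe sets at an unadjusted p under 0.05 are set beside the 3.09% higher of all. Among 7 other antibody receptors, with 11 probe sets, 1 was higher and 0 lower, and the median gene difference was 0.13. In IgG minus NT all 7 of these genes lay above 0 by gene means, with a median of 0.48. Of all single probe sets 48.7% lay above 0, a share that is not of gene means. There too 1 probe set was higher and 0 lower, and 0 were called. Fcrl2, an Fc receptor-like protein, stood at 1.26 ± 0.41 and B2m, the partner chain of FcRn and class I molecules, at 0.52 ± 0.25, while 1 probe set of Fcrla was at -1.10 ± 0.89, where the mean of that gene was -0.49, and Pigr, which carries IgA and IgM across epithelia, at -0.66 ± 0.55. Among 6 genes listed for receptors that use ITAM adaptors, with 7 probe sets, 1 was higher and 0 lower, with a median of 0.52. Clec7a (Dectin-1), a fungal glucan receptor, stood at 0.72 ± 0.28 and Lilra5 at 0.86 ± 0.98, and Trem2, a partner of Tyrobp, at -0.63 ± 0.31. Hcst (DAP10), which is in that list but is an adaptor with a motif for PI3-kinase and no ITAM, was at -0.48 ± 0.44.

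Among 12 other kinases and their regulators, with 19 probe sets, 3 were higher and 1 lower, with a median of 0.04. The Src-family kinases Fgr and Lck stood at 1.14 ± 0.45 and 0.58 ± 0.18, Csk, which restrains them, at 0.38 ± 0.16, and Tec at -0.38 ± 0.16. The IgG less NT difference of Lck was 0.50 ± 0.21. Of 19 adaptors and effectors that act after Syk, with 29 probe sets, 2 were higher and 1 lower, 15 genes lay above 0 and the median was 0.41. Sh3bp2 stood at 0.67 ± 0.23, Prkcd at 0.57 ± 0.25 and Vav1, an exchange factor for Rac, at 0.90 ± 0.40, while Plcg1 was at -0.44 ± 0.18.

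Genes that restrain the pathway were read in the same way. Of 16 genes of ITIM receptors, phosphatases and other inhibitors, with 25 probe sets, 4 probe sets were higher at an unadjusted p under 0.05 and 0 lower. By gene means all 16 lay above 0, the lowest at 0.03, with a median of 0.40. Of all single probe sets 50.3% lay above 0, a share that is not of gene means. Siglec5, a sialic acid receptor with ITIMs, read -1.02, -0.41 and 0.34 in NT, -1.77, -0.79 and -0.40 in IgG, 1.46, 0.24 and -0.20 in 11C7, and 1.01, 2.44 and 2.72 in 7B12. Its difference of 2.73 ± 0.53, 6.65-fold, had a limma adjusted p of 0.438 over 12 arrays and 0.0212 in the paired fit, where it rose, the only probe set of this list to be called. With any 1 of the 9 arrays left out that fit called 0 of all 31042 probe sets, Siglec5 among those lost. Lilrb4, another ITIM receptor, stood at 1.60 ± 0.37, Cd33 at 0.97 ± 0.40 and the docking protein Dok1 at 0.51 ± 0.16. With 11C7 13 of the 16 genes lay above 0 with a median of 0.12, and the same without 11C7 1, and with IgG minus NT 11 of 16 with a median of 0.05.

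**Figure D5:**
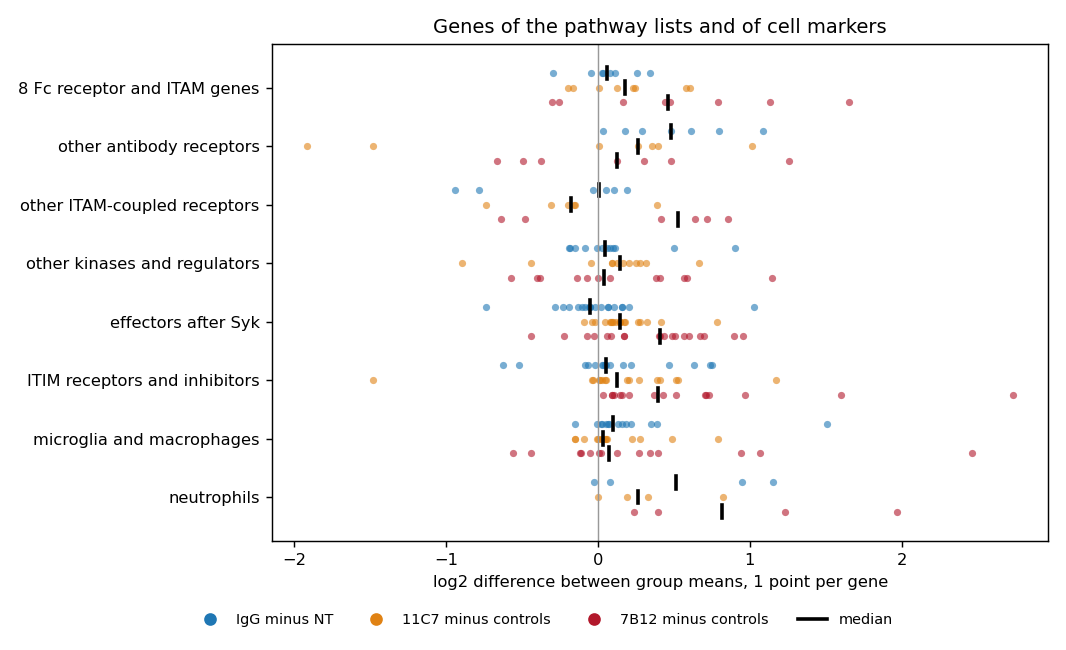
Log2 differences between group means (horizontal axis), 1 point per gene, for the 8 genes, 5 lists of other pathway genes and 2 lists of cell markers; black bars are medians and colours the 3 comparisons. With 7B12 the median of the inhibitor list is 0.40, of the effector list 0.41 and of the microglia list 0.07.

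Markers of cell types that hold these receptors were read beside the members. Of 14 microglia and macrophage markers, with 16 probe sets, 2 probe sets were higher with 7B12 at an unadjusted p under 0.05 and 0 lower, 9 genes lay above 0 and the median was 0.07. Mrc1, the mannose receptor of perivascular and meningeal macrophages, stood at 2.46 ± 0.61 and rose in the paired fit with an adjusted p of 0.0187, a call lost in the same way. Tmem119, a microglial marker, stood at 1.07 ± 0.37, Itgam, the integrin CD11b, at 0.94 ± 0.43 and 1 probe set of Aif1 (Iba1) at 0.65 ± 0.38, where the mean of that gene was 0.34. By gene means, Cx3cr1 was at 0.39 and Csf1r at 0.27, while P2ry12, a receptor of resting microglia, was at -0.56 and Gpr34 at -0.44. C1qa, C1qb, C1qc, Cd68, Cd163 and Irf8 lay between -0.12 and 0.12. The mean of the 14 markers was -0.60 to 0.62 on the control arrays, -0.26 to 0.43 with 11C7 (the same range without 11C7 1) and 0.08 to 0.68 with 7B12. Against controls of the same number it differed by 0.31 ± 0.19 (SD, n = 3) with 7B12, by 0.34, 0.12 and -0.12 with 11C7 1 to 3, and by 0.22 ± 0.19 with IgG against NT. The part of these cells in the values of Fcgr3a and Fcer1g was not tested.

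Of 4 neutrophil markers, 2 were higher with 7B12 at an unadjusted p under 0.05 and all 4 lay above 0, with a median of 0.81. In IgG minus NT 3 of the 4 lay above 0, with a median of 0.51. With 11C7 all 4 lay above 0, with a median of 0.26. In both of these comparisons 0 were higher at an unadjusted p under 0.05. The antimicrobial peptide gene Camp stood at 1.97 ± 0.80 and S100a8 at 1.23 ± 0.54, while S100a9 was at 0.40 ± 0.67 and Csf3r at 0.24 ± 0.34. Camp read -1.98, -3.03 and -3.27 in NT, -2.20, -3.35 and 0.11 in IgG, and -1.63, -0.20 and 0.87 in 7B12. These groups overlapped, and its low values were not filtered. The mean of the 4 was -1.85 to 0.44 on controls, -1.07 to -0.56 with 11C7 and -0.39 to 0.29 with 7B12, higher than same-number controls by 1.02, 1.34 and 0.51 with 7B12. Their part in the members' values was not tested.

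Of 2 B cell markers 1 was higher, Cd79b at 2.75 ± 0.93, an ITAM protein of the B cell receptor, with Ms4a1 at -1.22 ± 1.06. Of 12 T and NK cell probe sets for 9 genes 1 was higher and 0 lower, with a median of 0.17. This was Cd3d, an ITAM chain of the T cell receptor, at 1.87 ± 0.44 with 7B12 and at 2.12 ± 0.51 in IgG minus NT. It read -3.93, -3.12 and -3.04 in NT, -1.72, -0.55 and -1.46 in IgG, -2.97, -3.42 and -2.44 in 11C7, and -1.36, 0.56 and -0.51 in 7B12. Such low values are less certain and were not filtered. With 7B12 0 probe sets were higher or lower at an unadjusted p under 0.05 among the markers of mast cells (5 genes, median 0.28), platelets and red cells (6 genes, -0.20), neurons (8 genes, 0.03), oligodendrocytes (5 genes, -0.11) and astrocytes (6 genes, -0.0058).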

How the data were processed

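RNA of 12 samples was labelled and hybridised to Affymetrix rat arrays, with RNA integrity numbers above 9, per the labels' protocols. Per the submitters' processing notes the tools were GCOS 1.4 and MAS5. The authors then normalized per array and per gene in GeneSpring, per the design text. The deposited values are a ratio per probe set. Within 0.0015, 76.4% of probe sets have a 12-array median of 1, whereas the design text names the controls as the reference. A constant divisor leaves log2 differences between groups as they are.

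Of 31099 probe sets, 57 spike-in controls were left out. By the platform annotation, 20826 probe sets (67.1%) have 1 symbol, 436 several and 9780 none, and a match through Entrez identifiers for 20758 changed 0 symbols. Groups and replicate numbers came from the sample titles. Log2 values less the array median entered limma 3.58.1 under R 4.3.3, using lmFit, contrasts and eBayes without a trend, 1 mean per group, with two-sided tests in 5 comparisons; the code was tested on simulated data. Arrays have no depth, and 3 per group limit the precision.

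The replicate numbers are the labels' own. For NT, IgG and 7B12, and for 7B12 with 11C7, every same-number pair correlated above 0.1, so they were taken to pair those arrays. For all 4 groups 17 of 18 pairs did, from 0.086 to 0.42, and different-number pairs were at -0.29 to 0.081. The 8 genes, the 14 other lists, the tests and the alternatives were chosen with earlier results of these data known, and no p was adjusted over a list alone. All 8 genes are named, and of each other list up to 4 genes with the smallest unadjusted p in 7B12 minus controls, plus any probe set called. The remaining microglia and macrophage markers were named after their values were seen. For a gene with several probe sets, counts and medians over genes use their mean, and a value with an SE is that of the probe set with the smallest p. Alternatives were other normalizations, a pseudocount of 0.1, a filter, array weights, robust eBayes, the replicate number as a block, other control groups and leaving out each array; leaving out arrays from the paired fits, and 11C7 1 from the lists, was added after seeing the data. One further promoter motif, an interferon response element, was searched and is not reported.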

Additional observations from a re-analysis of the deposited data

How the results depend on the processing

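With 3 arrays per group, the precision is limited, and 0 calls does not show that the groups are alike. Of 806 values of 35 single differences, 760 kept their sign and side of the threshold, 42 turned sign without being called and 4 became called. For 7B12 against the other anti-Nogo-A antibody, and for both against IgG, these covered only Fcgr3a, Fcer1g and Lyn. Those genes had the largest differences there. With the block and without the array that stood apart, the uncounted Tyrobp turned from -0.080 to 0.134 and from 0.076 to -0.031. Fcgr1a turned from 0.127 to -0.0028 for both against IgG. The other uncounted genes kept their sign in that fit. Over all alternatives the difference of 7B12 from controls was 1.41 to 1.80 for Fcgr3a, 0.94 to 1.26 for Fcer1g and 0.67 to 0.92 for Lyn (1387277_at).

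Probe sets called for 7B12 minus controls numbered 0 with the replicate number as a block over 12 arrays, 1 in the fit of the compared groups alone, 68 (61 higher, 7 lower) in that fit with the block and 99 (84 higher, 15 lower) with the block and without 11C7 1. In the last pair of fits 2 of the 9 probe sets were called. With a further array left out, 0 were called in the first of them, and 0 to 2 in the second. The second leaves out an array that was picked by values of these genes. Leaving out single arrays without a block gave 0 to 10 calls for 7B12 minus controls, the 10 without 11C7 1, 0 to 1 for IgG minus NT, 11C7 minus controls and 7B12 minus 11C7, and 0 to 2 for anti-Nogo-A minus IgG. For 7B12 minus 11C7 the block without 11C7 1 gave 27 calls, and for IgG minus NT the filter on the 12-array median gave 1. The block changed no other call. The causes were not tested.

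Among the single differences counted above, signs turned for small ones. For 11C7 minus controls, Syk was at -0.015 with quantile normalization, -0.027 with array weights, -0.23 with the block and without 11C7 1, and -0.013 against NT alone, and at -0.19 to 0.16 with single arrays left out. Fcgr1a was at -0.0982 with array weights, -0.14 with the block and without 11C7 1, -0.050 against IgG alone, and at -0.14 to 0.36 with arrays left out. Lyn (1368679_a_at) was at -0.019 with the block and without 11C7 1, and arrays left out gave -0.45 to 0.040 for Fcgr2b and -0.46 to 0.20 for Fcgrt. For 7B12 minus controls arrays left out gave -0.069 to 0.47 for Tyrobp and -0.47 to 0.070 for Fcgr2b. For IgG minus NT array weights gave 0.0061 for Lyn (1387277_at), and arrays left out gave -0.24 to 0.18 for Syk, -0.15 to 0.36 and -0.23 to 0.13 for the 2 Lyn probe sets, -0.37 to 0.36 for Fcgr2b, -0.23 to 0.38 for Fcgr3a, -0.16 to 0.38 for Fcer1g, -0.36 to 0.69 for Tyrobp and -0.64 to 0.15 for Fcgrt.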
